A study of Homo sapiens with 12 samples.

Results

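The mature miRNAs hsa-miR-335-5p, hsa-miR-335-3p, hsa-miR-455-5p, hsa-miR-455-3p and hsa-miR-331-3p (written without hsa where their hairpins are discussed) were followed through a SLAMseq experiment on splicing inhibition. They are 5 of the 2652 mature miRNAs in each deposited table, and all 5 were among the 178 with a mean of more than 100 CPM (read counts scaled to one total in every library) over the libraries, on which tests were run. They were picked by name, with their T>C conversion rates in view, as miRNAs of 3 hairpins labelled in the absence of the splicing inhibitor and little labelled in its presence. These rates, and every PlaB against DMSO value of the 5, are therefore described without a test. The remaining arm of these hairpins, miR-331-5p, is no member and is shown beside them.

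The cells were Huh7, a cell line from a human liver cancer (hepatocellular carcinoma). The 12 libraries come from 4 independent experiments of 3 conditions. Control cells received DMSO without 4-thiouridine (4SU), DMSO cells received DMSO with 500 µM 4SU, and PlaB cells received pladienolide B with 500 µM 4SU, each for 4 h. For pladienolide B (PlaB), which inhibits the splicing factor SF3B1, the methods of the study state 1 µM and the sample labels 500 µM. The DMSO libraries of replicates 1 and 2 each merge 3 sequencing runs, from a first, a repeated and a re-amplified preparation. Reads on miRNAs numbered between 1522210 and 3880241 per library, and the hepatocyte miRNA miR-122-5p was at 55353 to 105331 CPM. The summed level of 6 markers of blood cells, smooth muscle and fibroblasts (miR-223-3p, miR-142-3p, miR-142-5p, miR-451a, miR-143-3p and miR-145-5p) was 99.7 to 170.3 CPM in Control, 93.5 to 130.1 in DMSO and 104 to 164 in PlaB, and none of the 6 was at 0 in every library.

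A miRNA is cut from a longer primary transcript as a hairpin by the Microprocessor and trimmed by Dicer to a duplex, of which either strand, named 5p or 3p by its side of the hairpin, can be loaded into an Argonaute protein. The seed, bases 2 to 8 of the loaded strand, pairs with target mRNAs. 4SU enters RNA made during the incubation, and after alkylation it is read as C, so that T>C conversions mark newly made miRNA, whereas the read count also holds miRNA made before. The 6 mature sequences (RefSeq, GRCh38) are shown 5′ to 3′ because each U is a position at which a conversion can be counted. Capitals mark the seed.
miR-335-5p: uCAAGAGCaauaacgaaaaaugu
miR-335-3p: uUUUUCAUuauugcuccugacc
miR-455-5p: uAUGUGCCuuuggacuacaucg
miR-455-3p: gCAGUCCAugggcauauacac
miR-331-5p: cUAGGUAUggucccagggaucc
miR-331-3p: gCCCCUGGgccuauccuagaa

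The 6 seeds differ from each other, and no other mature miRNA in the RefSeq table shares any of them. miR-335-5p, miR-455-3p and miR-331-3p hold 4 U each, miR-331-5p holds 5, miR-455-5p 8 and miR-335-3p 11, the same numbers as the T content in the deposited tables. The reads of miR-335-5p covered 3.24 T positions each in Control, 3.23 in DMSO and 3.22 in PlaB, fewer than its 4. All rates below are conversions divided by covered T positions, so that arms with different numbers of U are on the same scale.

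In GENCODE version 44 on GRCh38, MIR335 lies on the plus strand of chr7:130496111-130496204, in intron 2 of MEST, an imprinted gene expressed from the paternal allele. It is 9940 bases from the start of the gene, and a lncRNA is annotated on the other strand there. MIR455 lies on the plus strand of chr9:114209434-114209529 in intron 10 of COL27A1, which encodes a fibrillar collagen chain, 145 bases before the next exon. MIR331 lies on the plus strand of chr12:95308420-95308513 and overlaps no annotated gene on that strand. The nearest gene before it on its strand, a lncRNA, ends 1556 bases upstream. VEZT, the nearest protein-coding gene there, ends 5620 bases upstream. An intronic position thus holds in this annotation for 4 of the 5 members and not for miR-331-3p.

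hsa-miR-335-5p was labelled in DMSO and had no T>C conversion in Control or PlaB. In DMSO it had 10, 24, 22 and 17 conversions in replicates 1 to 4, at rates of 0.238%, 0.416%, 0.457% and 0.565%. In Control, 0 conversions were counted at 10465 covered T positions in the 4 libraries together, and in PlaB 0 at 9561. At the pooled DMSO rate of 0.410% (95% Wilson interval 0.326 to 0.515%), the PlaB libraries would have held 39.2 conversions. Taking 3 conversions over the 4 libraries as the limit of a count of 0, the PlaB rate was at most 0.0314%, and the pooled DMSO rate was 13.1 times this limit. Counting error alone, with the 4 libraries pooled (exact Clopper-Pearson 95% interval of the ratio), put PlaB at least 10.4-fold below DMSO. This bound leaves out the spread between libraries and the choice of the member on these rates. The Control rate was at most 0.0287% by the same limit, of which the pooled DMSO rate was 14.3 times, and by the same interval DMSO was at least 11.3-fold above Control.

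hsa-miR-335-3p, cut from the same hairpin, did not follow its partner. It had 7, 4, 0 and 1 conversions in DMSO, at rates of 0.116%, 0.0723%, 0% and 0.0341%. In PlaB it had 0, 2, 12 and 3, at rates of 0%, 0.0803%, 0.412% and 0.108%. The groups overlapped, and the highest value of the 12 was that of PlaB replicate 3. Control held 1 conversion at 18038 covered T positions. The 17 conversions in PlaB compared with 6.76 at the pooled DMSO rate, and the mean PlaB rate was 0.150% ± 0.181 against 0.0556% ± 0.0499 in DMSO (SD, n = 4). The name given to the group, a shutdown of labelling, is therefore not borne out for this arm, whose PlaB rate was below its DMSO rate in 1 of 4 experiments. The ratio of mean rates, PlaB over DMSO, was 2.70, and it was 1.13 without PlaB replicate 3, which held 12 of the 17 conversions. Without DMSO replicates 1 and 2, which held 11 of its 12 DMSO conversions, it was 8.80.

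hsa-miR-455-5p had the highest labelling of the 5 members. Its DMSO conversions numbered 63, 63, 31 and 53, at rates of 0.902%, 0.862%, 1.29% and 1.39%. In PlaB it had 14, 1, 0 and 2 conversions, at rates of 0.392%, 0.0257%, 0% and 0.0546%, so that no PlaB library reached the lowest DMSO library. PlaB replicate 1 held 14 of the 17 conversions. In Control the counts were 6, 0, 1 and 3, and the highest Control rate, 0.182%, was also in replicate 1. The PlaB and Control libraries overlapped. At the pooled DMSO rate 131 conversions would have been counted in PlaB, and at the pooled Control rate 8.40. The ratio of mean rates, PlaB over DMSO, was 0.106 with a propagated SD of 0.167, and 0.0241 without PlaB replicate 1.

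hsa-miR-455-3p, by far the most abundant of the 5, gave the best counted comparison. DMSO held 103, 97, 53 and 50 conversions, at rates of 0.121%, 0.139%, 0.164% and 0.124%. PlaB held 5, 10, 15 and 11, at rates of 0.0170%, 0.0312%, 0.0481% and 0.0255%. These lay below every DMSO library and overlapped the Control libraries, whose rates were 0.0221%, 0.0214%, 0.0532% and 0.0369%, with PlaB replicate 1 below the lowest of them. The 41 PlaB conversions compared with 181 at the pooled DMSO rate and with 44.7 at the pooled Control rate. Mean rates were 0.137% ± 0.0200 for DMSO, 0.0304% ± 0.0132 for PlaB and 0.0334% ± 0.0150 for Control (SD, n = 4).

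For miR-455-3p the number of reads with a T>C conversion was larger than the number of conversions counted on its T positions, with 324 and 48 in Control, 731 and 303 in DMSO, and 293 and 41 in PlaB. This excess made up 0.756% of its Control reads, 0.752% of its DMSO reads and 0.742% of its PlaB reads. An excess of like size was thus present without 4SU. Scored by the share of reads with a T>C conversion, the ratio of PlaB to DMSO was 0.669 in place of 0.222. Reads with a conversion were more than 2 times the conversions in 3 of the 178 miRNAs tested.

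hsa-miR-331-3p rested on few conversions. DMSO held 4, 16, 10 and 3, at rates of 0.0478%, 0.233%, 0.274% and 0.0760%. PlaB held 0, 1, 0 and 0, a pooled rate of 0.00710% (95% Wilson interval 0.00125 to 0.0402%). Control held 1, 1, 0 and 1. Each DMSO library lay above each Control and PlaB library, and the DMSO libraries themselves fell into a higher pair, replicates 2 and 3, and a lower pair. At the pooled DMSO rate PlaB would have held 20.3 conversions and at the pooled Control rate 2.61. The pooled ratio of DMSO to PlaB was 20.3, with a 95% interval from counting alone of 3.40 to 827. This interval too leaves out the spread between libraries and the choice of the member on these rates.

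miR-331-5p, the arm that is no member, remained labelled in PlaB. Its DMSO conversions were 38, 24, 29 and 49, at rates of 1.25%, 1.08%, 2.23% and 2.96%. Its PlaB conversions were 10, 4, 13 and 5, at rates of 0.972%, 0.488%, 1.19% and 0.334%. Each PlaB library lay above the Control libraries (at most 0.0928%), an order that 38.8% of the 178 miRNAs showed, and the PlaB and DMSO libraries overlapped. In edgeR's quasi-likelihood test of T>C conversions offset by covered T positions on the log scale, the DMSO libraries exceeded those of Control (log2 fold change 4.77, SE 0.767, Benjamini-Hochberg adjusted p = 5.61e-07). Of the 178 miRNAs 77.5% were called higher in this comparison. Against DMSO, PlaB gave -1.32 on the log2 scale (SE 0.629, same edgeR test, adjusted p = 0.0913), lower in 4 of 4 experiments and not past the threshold of 0.05, with 37.1% of the 178 called lower. Adjusted p-values over 18 alternatives ranged from 0.0408 to 0.278, and 2 passed the threshold. With the experiment as a block the adjusted p was 0.184.

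**Figure D1:**
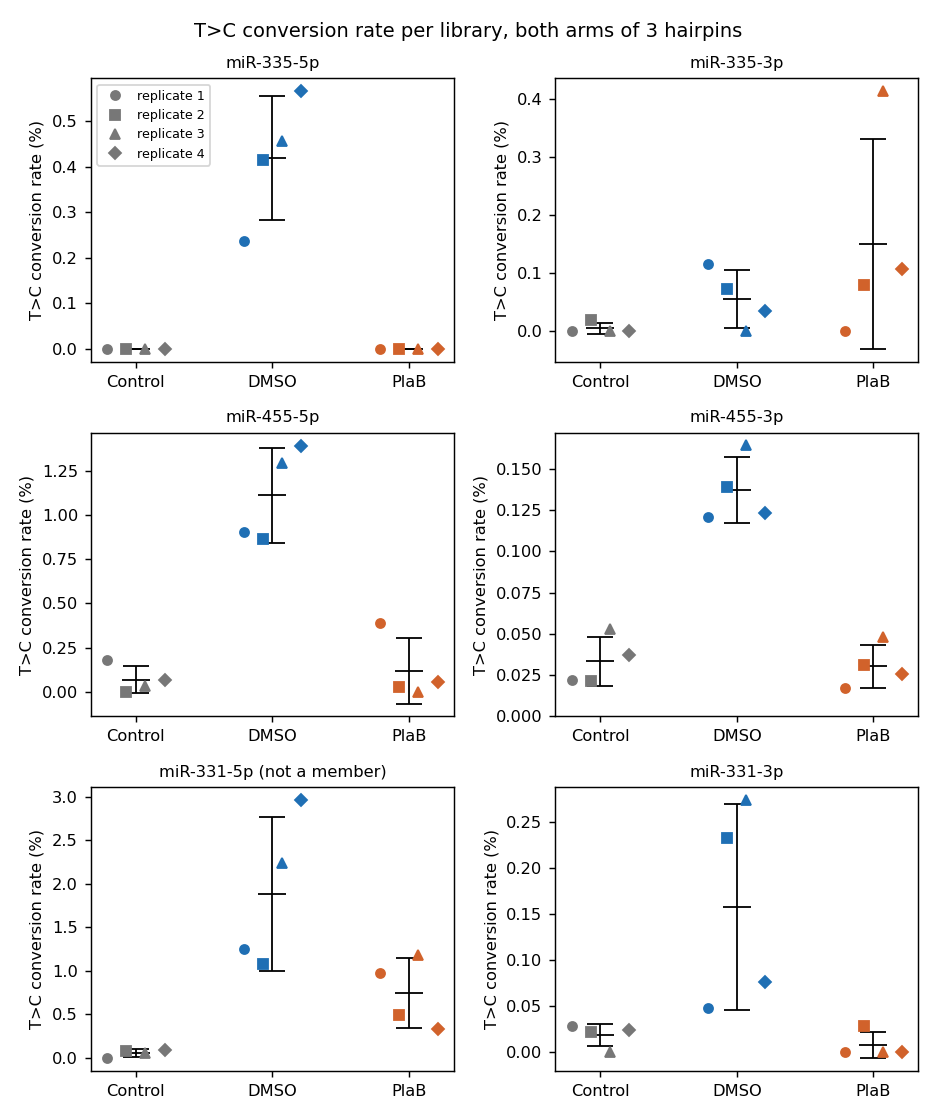
T>C conversion rate in percent (y axis, scaled per panel) for each library by condition (x axis), with replicates 1 to 4 as symbols and the mean ± SD as bars. miR-335-5p is at 0 in all 8 Control and PlaB libraries, whereas miR-335-3p has its highest value, 0.412%, in PlaB replicate 3 and miR-331-5p stays above Control in all 4 PlaB libraries.

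The order of the groups was set beside that of the other miRNAs. All 4 DMSO rates lay above all 4 Control rates for 4 of the 5 members and for 65.7% of the 178 miRNAs tested. All 4 DMSO rates lay above all 4 PlaB rates for the same 4 members, miR-335-3p being the exception, and for 40.4% of the 178. The members were chosen on these rates, so the counts describe them and carry no test.

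By the pooled rate of PlaB over that of DMSO, 4 of the 5 members lay in the lower part of the distribution. They were chosen for low labelling in PlaB, so this order follows from the choice and carries no test. Among the 168 miRNAs with a conversion in DMSO the median ratio was 0.423. The ratio was 0 for miR-335-5p, 0.0492 for miR-331-3p, 0.130 for miR-455-5p and 0.227 for miR-455-3p, with 0, 8, 16 and 35 miRNAs lower. Of the 168, 162 had a higher ratio than miR-335-5p, and the rest shared its ratio of 0. miR-335-3p, at 2.51, had 5 miRNAs above it (the plot of DMSO against PlaB rates). Of the 138 miRNAs with at least 20 conversions in DMSO, 2 had none in PlaB, miR-335-5p and miR-941, the second named after its values were seen. In the scatter of DMSO against PlaB rates miR-331-5p sits near the middle of the distribution, with a ratio of 0.423.

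**Figure D2:**
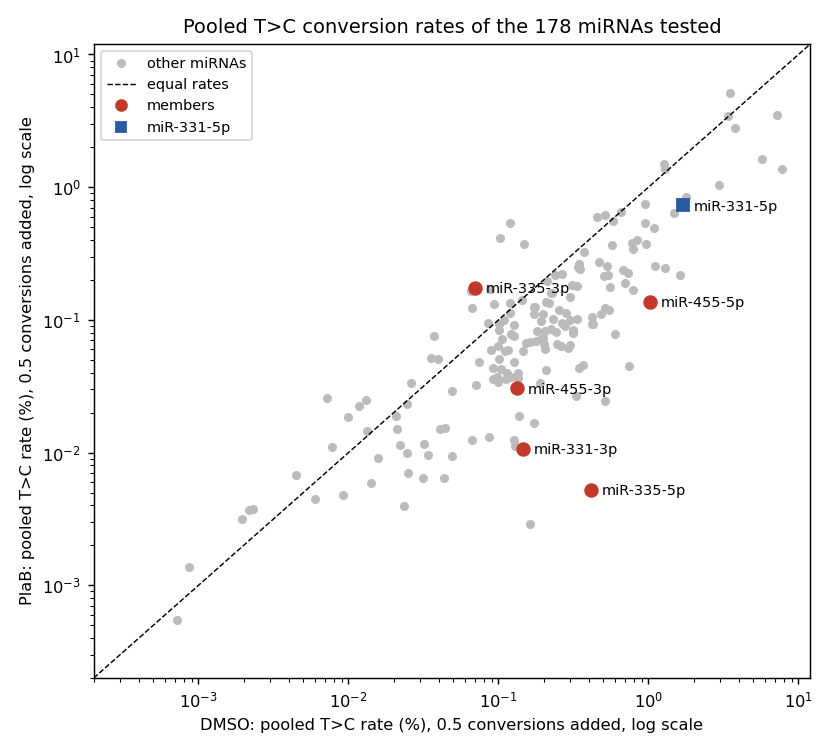
Pooled T>C conversion rate in DMSO (x axis) and PlaB (y axis) in percent on log scales, with 0.5 conversions added, for the 178 miRNAs tested; the dashed line marks equal rates. The members lie below the line except miR-335-3p, and miR-335-5p, with 0 conversions in PlaB, lies farthest below it of the 5.

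The 3 hairpins had the higher labelling on the same side. In DMSO the 5p arm had the higher rate in 4 of 4 libraries of each hairpin, with pooled 5p rates 6.11 times those of 3p for miR-335, 7.69 times for miR-455 and 11.8 times for miR-331. The arm with fewer reads was 5p for miR-455 and miR-331, and 3p for miR-335. In miR-335 the abundant arm was therefore the more labelled. Over all 28 hairpins with both arms among the 178, the arm with fewer reads had the higher DMSO rate in 19 and the lower in 9. The side with the higher rate was not counted over the 28, so the shared 5p side is not read as a trait of these 3.

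Other miRNAs in hosts of this kind were set beside the members. Of the 178 miRNAs 160 have a locus in the RefSeq table, and 69 lie in an intron of a protein-coding gene on their own strand and in no exon. Leaving out the 4 members in it, 65 remained, of which 49 (75.4%) were called higher in DMSO than in Control, against 77.5% of the 178. Of these 65, 18 (27.7%) were called lower in PlaB than in DMSO, against 37.1% of the 178, and none was called higher in PlaB. Their median pooled PlaB to DMSO ratio was 0.467, against 0.423 over all tested miRNAs. Among the 15 other miRNAs in no annotated gene, both arms of miR-331 left out, 3 were called lower in PlaB, and the median ratio was 0.652 over the 12 with a conversion in DMSO. Both medians lie above the ratios of 4 of the 5 members, an order that follows from their choice for low labelling in PlaB and carries no test. Low ratios were not confined to the members. Among the 65, miR-942-5p had 0.0380 and miR-501-3p had 0.0486.

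The miRNAs whose log2 T>C rates were most like those of the members over the 12 libraries were found by Pearson's r, with 0.5 conversions added. For miR-335-5p they were miR-217-5p (r = 0.94), miR-122-5p (r = 0.94) and miR-501-3p (r = 0.94), with a median of 0.64 over all others. For miR-455-3p they were miR-532-5p (r = 0.94), miR-200c-3p (r = 0.94) and miR-942-5p (r = 0.89), with a median of 0.57. For miR-331-3p they were miR-941 (r = 0.87), miR-501-3p (r = 0.83) and miR-1180-3p (r = 0.80), with a median of 0.43. The 12 points share the 3 conditions, so that any miRNA high in DMSO and low in both other conditions scores high. miR-501-3p, for example, had 0, 72 and 2 conversions in Control, DMSO and PlaB.

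Read counts against Control are a different measure from the T>C rates by which the members were picked. Earlier results of these data were known at that choice, so the read tests may not be independent of it. The read counts showed a lower level of the lesser arm of miR-335 and of miR-331 in cells given 4SU, with or without PlaB. Mean CPM in Control, DMSO and PlaB was 199, 146 and 132 for miR-335-3p. For miR-331-5p it was 230, 148 and 129. Without a block, only PlaB against Control passed the threshold. That comparison differs in 4SU as well as in PlaB. In these bulk libraries of the Huh7 line a drop in some cells and a smaller drop in every cell cannot be told apart. Reads of hsa-miR-335-3p were at 195, 196, 201 and 203 CPM in Control, at 141, 154, 151 and 136 CPM in DMSO and at 112, 115, 166 and 133 CPM in PlaB. All Control libraries lay above all 8 others, an order against DMSO that 8.99% of the 178 miRNAs showed and against PlaB likewise 8.99%. PlaB against Control gave a log2 fold change of -0.59 with an SE of 0.138 (adjusted p = 0.0128, edgeR), with 6.74% of the 178 called lower and 0% called higher. For DMSO against Control it was -0.43 (SE 0.137, adjusted p = 0.0965), with 5.06% called lower and 1.12% higher (9 and 2 miRNAs, or 16 and 17 with the experiment as a block). With the experiment as a block this second difference passed the threshold (log2 fold change -0.43, adjusted p = 0.0245), as it did in 4 of 20 alternatives in all (adjusted p from 0.0138 to 0.466). The call against PlaB held in 19 of 20 alternatives and was lost when no filter on low counts was used (adjusted p = 0.125).

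miR-331-5p had 257, 198, 194 and 272 CPM in Control, 158, 138, 129 and 170 CPM in DMSO, and 135, 82.8, 138 and 158 CPM in PlaB. Its Control libraries again lay above all others. PlaB against Control gave a log2 fold change of -0.84 with an SE of 0.190 (edgeR, adjusted p = 0.0101), and this call held in all 19 alternatives run for it (adjusted p from 0.000398 to 0.0453). For DMSO against Control it was -0.62 with an SE of 0.187 (edgeR, adjusted p = 0.0841), and with the experiment as a block -0.61 (adjusted p = 0.00745), which was 1 of the 4 alternatives among 19 that passed the threshold (adjusted p from 0.00745 to 0.343). 

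The other 4 arms did not pass the test in either comparison. hsa-miR-335-5p was at 340, 402, 476 and 352 CPM in Control, 336, 549, 733 and 471 CPM in DMSO, and 300, 414, 665 and 334 CPM in PlaB, with replicate 3 the highest in each condition. DMSO against Control gave a log2 fold change of 0.44 with an SE of 0.274 (edgeR, adjusted p = 0.468), and PlaB against Control gave 0.14 with an SE of 0.275 (adjusted p = 0.956). With the experiment as a block the DMSO value was 0.38 (adjusted p = 0.0533).

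hsa-miR-455-3p ranged from 3888 to 5100 CPM in Control, 3969 to 5491 CPM in DMSO and 4054 to 5639 CPM in PlaB. Its log2 fold changes were 0.19 in DMSO and 0.14 in PlaB against Control (adjusted p = 0.480 and 0.809 in edgeR's test). hsa-miR-455-5p ranged from 215 to 256 CPM in Control, 153 to 286 CPM in DMSO and 135 to 299 CPM in PlaB, with log2 fold changes of -0.03 and -0.02 (adjusted p = 0.972 and 0.998). hsa-miR-331-3p was at 447 to 547 CPM in Control, 450 to 540 CPM in DMSO and 451 to 582 CPM in PlaB, with log2 fold changes of 0.05 in both comparisons (adjusted p = 0.873 and 0.987). The groups overlapped for all 4 arms, and they are the 4 arms in which all PlaB rates lay below all DMSO rates.

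The ratio of the 2 arms within a library needs no normalization between libraries. Reads of miR-335-5p were 1.74 to 2.37 times those of miR-335-3p in Control, 2.37 to 4.85 times in DMSO and 2.51 to 4.00 times in PlaB. All DMSO and PlaB values lay above the Control values. On the log2 scale the 4 Control libraries averaged 0.97 ± 0.21, the 4 DMSO libraries 1.79 ± 0.42 and the 4 PlaB libraries 1.65 ± 0.33 (SD). The exact two-sided permutation test gave p = 0.0286 for each comparison with Control, the smallest that 4 libraries against 4 allow, and adjusted over 28 hairpins 0.0667 for DMSO and 0.0727 for PlaB, short of the threshold.

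For miR-331 the abundant arm is 3p, and its reads were 1.64 to 2.56 times those of 5p in Control, 2.96 to 3.81 times in DMSO and 2.96 to 5.44 times in PlaB. The groups of 4SU libraries again did not overlap Control, with the same exact permutation p-values of 0.0286 and adjusted values of 0.0667 and 0.0727. Reads of miR-455-3p were 16.8 to 20.8 times those of miR-455-5p in Control, at least 18.6 times in DMSO and 16.1 to 36.2 times in PlaB, which overlapped (exact permutation p = 0.0857 and 0.629). The difference in log2 arm ratio between DMSO and Control was 0.82 for miR-335, -0.65 for miR-331 and -0.26 for miR-455. Of the 28 hairpins 0% were called in either comparison by adjusted p, and 12 in DMSO and 11 in PlaB had an unadjusted exact permutation p under 0.05. Both comparisons share the Control libraries.

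**Figure D3:**
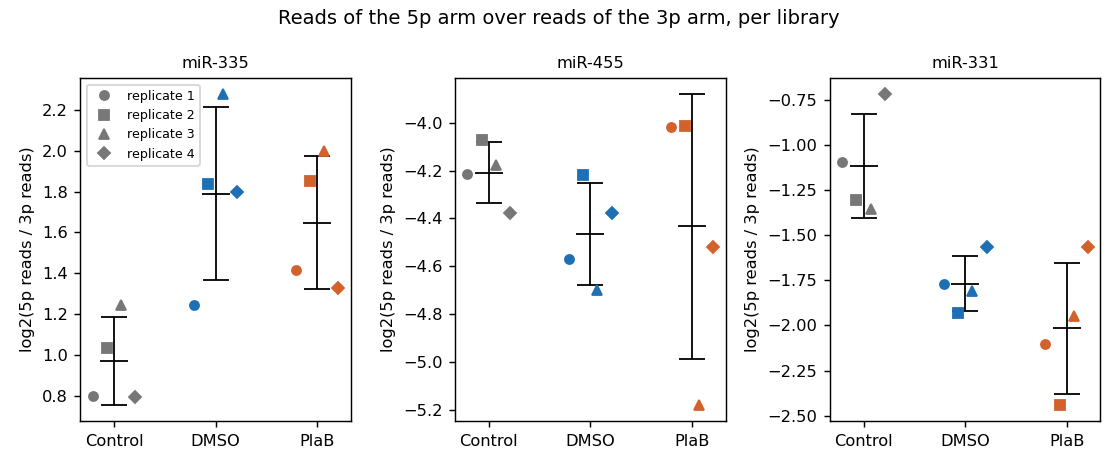
log2 of 5p reads over 3p reads (y axis, scaled per panel) for each library by condition (x axis), with replicates 1 to 4 as symbols and the mean ± SD as bars. The Control libraries of miR-335 lie below, and those of miR-331 above, all 8 libraries with 4SU, while those of miR-455 overlap the others.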

How the data were processed

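Reads were taken from 12 SLAMseq tables of Huh7 cells. The authors trimmed reads with Trim Galore, aligned them to GRCh38 and used SLAM-DUNK to count them over mature miRNA coordinates of miRBase. The deposited tables give counts (reads, covered T positions, T>C conversions, reads with a conversion, multi-mapping reads), CPM and the conversion rate as a fraction. The members and lists were chosen with earlier results of these data known.

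The 178 miRNAs with a mean over 100 CPM were tested with edgeR 4.0.16 in R 4.3.3 (TMM factors, all 12 libraries in one fit, quasi-likelihood tests, Benjamini-Hochberg adjustment, threshold 0.05). SE is the log2 fold change divided by the square root of F. Alternatives were DESeq2 1.42.0, RLE factors, other filters, the 143 miRNAs marked by the study as its Initial miRNA Dataset, a replicate block, the 8 libraries compared alone, reads with a T>C conversion, reads less multi-mapping reads, and libraries left out. Python 3.11.15 (numpy 2.4.6, scipy 1.17.1, pandas 2.3.3, matplotlib 3.10.9) gave the permutation tests (70 labelings), Wilson intervals and figures. Intervals and limits reflect counting error alone and take each read as a separate molecule. Reads may repeat a molecule, in which case the intervals are too narrow. Named miRNAs are the members, miR-331-5p and, for 3 members, the 3 miRNAs with the highest r.

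Replicate numbers mark the 4 independent experiments of the methods. Read deviations from the condition mean correlated between same-numbered libraries with medians of 0.433 to 0.463 (lowest -0.138). Between differently numbered libraries the medians were -0.186 to -0.141. Fits without a block are given first. The count tests were also run on simulated data without pairing of replicates. The outcome is not given here, and no result rests on it.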

Additional observations from a re-analysis of the deposited data

Results flagged for a closer look

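In 3 of 43 groups of 4 libraries examined, for the reads, T>C rates and arm ratios of the 6 arms, the highest library stood apart from the other 3 by Dixon's criterion, which chance meets in about 1 in 20 groups. The T>C rate of miR-455-5p in PlaB replicate 1 was 0.392%, against 0% to 0.0546% in the other PlaB libraries. The rate of miR-335-3p in Control replicate 2, 0.0194%, and that of miR-331-3p in PlaB replicate 2, 0.0280%, rest on 1 conversion each, with 0 in the other 3 libraries. Any group of this form meets the criterion, so the chance of 1 in 20 does not apply to it.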

How the results depend on the processing

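Few conversions limit the T>C values. For reads of DMSO against Control 11 miRNAs were called. Other settings called 33 (17 higher) with the replicate block, 32 with edgeR's filter on low counts, 43 without a filter, 6 in the Initial miRNA Dataset and 6 without DMSO replicates 1 and 2 together. For PlaB against Control 12 were called, and 36, 48 and 5 with the same filter, no filter and the Initial miRNA Dataset. T>C calls for DMSO against Control fell from 139 to 86 with edgeR's filter, which tested 88 miRNAs. The PlaB to DMSO ratio of miR-335-3p was 8.80 without DMSO replicates 1 and 2, and that of miR-455-3p was 0.669 by reads with a conversion. Log2 changes near 0 turned direction without passing the threshold. For DMSO against Control these were miR-331-3p without Control replicate 4 (-0.015), DMSO replicate 1 (-0.0035) and DMSO replicates 1 and 2 (-0.011), and miR-455-5p without DMSO replicate 3 (0.13). For PlaB against Control these were miR-455-5p with RLE factors (0.0051), DESeq2 (0.0051), without Control replicates 1 (0.032) or 4 (0.010), PlaB replicate 3 (0.19) or DMSO replicates 1 and 2 (0.0017), miR-331-3p without PlaB replicate 1 (-0.0033), miR-335-5p without PlaB replicate 3 (-0.13) and the miR-455 arm ratio without it (0.026). With each library left out in turn, these ranged for DMSO against Control from -0.17 to 0.13 (miR-455-5p) and -0.015 to 0.11 (miR-331-3p), and for PlaB against Control from -0.13 to 0.28 (miR-335-5p), -0.14 to 0.19 (miR-455-5p), -0.0033 to 0.11 (miR-331-3p) and -0.36 to 0.026 (miR-455 arm ratio). The causes were not tested. The replicate block changed the calls of miR-335-3p and miR-331-5p reads for DMSO against Control and no other call of the 6 arms.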
